A study of Mus musculus with 8 samples.

Results

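The genes described here are 10 sensors and adaptors of nucleic acids in the cytosol, among 54532 genes in the expression table of the series. They were chosen by function, but with the strain differences of these same corneas already known, so the strain contrast of the 10 genes is given below as a description. They were part of the fit over all genes, and which of them passed its threshold is stated, but no p-value is given for them and the calls are not evidence about the set. The helicases were Ddx58 (RIG-I), Ifih1 (MDA5) and Dhx58 (LGP2), and their adaptor was Mavs. The double-stranded RNA and Z-form nucleic acid sensors were Eif2ak2 (PKR) and Zbp1, the editing enzyme was Adar (ADAR1), and the DNA arm consisted of Mb21d1 (cGAS), Tmem173 (STING) and the exonuclease Trex1. Of the 10 genes, 9 had reads in the corneas and all 9 passed the filter on low values (a mean rlog of at least 0), whereas Trex1 was listed at 0 in every cornea.

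Total RNA was sequenced from 8 naive corneas, 4 of the inbred strain BALB/c and 4 of the inbred strain C57BL/6N, all from male mice. The methods of the study name the first strain BALB/cN, and naive means that the corneas had not been treated. The comparison was made to find genes whose corneal expression differed between the parental strains of a cross. Whether each cornea came from a separate mouse is not stated, so the standard errors and adjusted p-values measure the spread between these samples.

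Cells carry receptors that recognise RNA or DNA in the wrong place or with the wrong chemistry. RIG-I and MDA5 bind viral-type double-stranded RNA and signal through MAVS on mitochondria, LGP2 modulates both, and cGAS makes a cyclic dinucleotide from cytosolic DNA that activates STING. Both adaptors engage the kinase TBK1 and the transcription factors IRF3 and IRF7, which switch on type I interferon genes, and many of the sensors are themselves interferon-stimulated genes. PKR halts translation on double-stranded RNA, ZBP1 triggers cell death through RIPK3 and MLKL, and ADAR1 and TREX1 lower the load of self nucleic acids. The corneal surface meets viruses such as herpes simplex virus, against which these pathways act.

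The recovered depth of the libraries was 36700000 to 41200000 reads in BALB/c and 29700000 to 37000000 reads in C57BL/6N, rounded to 3 digits. The corneal epithelium list (6 genes, with the corneal keratin Krt12) had a mean rlog value between 16.91 and 17.15 in all corneas. Here rlog is the log2 expression value of the deposited table, which is normalised for library size and pulls low counts towards the mean of the gene. The list of 8 stromal keratocyte genes was low in BALB/c replicate 2 (11.86) and in C57BL/6N replicates 3 (11.35) and 4 (11.32), against 13.41 to 14.19 in the other corneas. The lens list of 10 genes reached 7.27 and 6.67 in BALB/c replicates 1 and 4, against 4.89 to 5.37 elsewhere, and the pigment cell list of 7 genes reached 9.21 and 10.06 in the same 2 corneas, against 5.64 to 7.62 elsewhere. The mean of 6 conjunctival genes was at 8.81 to 9.29 in BALB/c and 9.40 to 9.58 in C57BL/6N, but the list was mixed. Krt13, Krt4, Krt19 and Muc4 were lower in every BALB/c cornea. Muc5ac (5.21 to 7.80 against 4.35 to 4.51) and Krt8 (4.23 to 4.49 against 3.90 to 4.07) were higher in every one. In whole tissue, fewer cells of a type and less RNA per cell cannot be told apart.

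RefSeq promoter windows (build GRCm38.p6, 250 bases before to 50 bases after the gene start) were matched for 7 of the 10 genes, in 10 windows. Dhx58, Zbp1 and Tmem173 had none. Many interferon-stimulated genes carry an interferon-stimulated response element (ISRE), for which the letters GAAANNGAAA were searched on both strands. The windows of Ddx58, Ifih1 and Eif2ak2 each held 1 match, starting at bases 3, 33 and 19, counted from 1 at the RefSeq gene start. The motif was present in 3.44% of all 32851 windows of this length. No match lay in the windows of Mavs, Mb21d1, Adar (3 windows) or Trex1 (2 windows), which says only that these letters are not there. The STAT dimer motif TTCNNNGAA, whose pattern is the same on both strands, was found once in the window of Eif2ak2 and once in 1 of the windows of Adar, and in 8.30% of all windows. In Eif2ak2 it lay apart from the ISRE match. The 3 windows with an ISRE match are shown 5′ to 3′ on the strand of the gene, with the matched letters in capitals, followed by the window of the adaptor gene Mavs, which has none. They lie at chr4:40239776-40240075 (minus strand, Ddx58), chr2:62646206-62646505 (minus strand, Ifih1), chr17:78882523-78882822 (minus strand, Eif2ak2) and chr2:131233813-131234112 (plus strand, Mavs).
Ddx58: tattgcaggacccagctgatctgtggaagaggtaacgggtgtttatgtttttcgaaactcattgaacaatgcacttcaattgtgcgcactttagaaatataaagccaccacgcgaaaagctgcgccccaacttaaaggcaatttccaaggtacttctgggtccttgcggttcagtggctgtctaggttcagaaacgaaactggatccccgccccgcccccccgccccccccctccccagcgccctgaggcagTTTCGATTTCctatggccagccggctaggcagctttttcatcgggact
Ifih1: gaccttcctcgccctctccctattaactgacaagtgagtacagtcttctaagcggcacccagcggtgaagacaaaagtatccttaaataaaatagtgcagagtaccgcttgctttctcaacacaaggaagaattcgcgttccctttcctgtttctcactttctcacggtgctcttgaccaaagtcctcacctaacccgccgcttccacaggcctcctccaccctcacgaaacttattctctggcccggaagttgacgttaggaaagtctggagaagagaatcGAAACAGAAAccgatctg
Eif2ak2: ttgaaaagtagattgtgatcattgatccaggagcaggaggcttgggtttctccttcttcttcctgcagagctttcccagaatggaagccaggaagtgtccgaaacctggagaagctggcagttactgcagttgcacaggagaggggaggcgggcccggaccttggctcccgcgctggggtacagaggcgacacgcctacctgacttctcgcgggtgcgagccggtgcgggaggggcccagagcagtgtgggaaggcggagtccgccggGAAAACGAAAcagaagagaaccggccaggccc
Mavs: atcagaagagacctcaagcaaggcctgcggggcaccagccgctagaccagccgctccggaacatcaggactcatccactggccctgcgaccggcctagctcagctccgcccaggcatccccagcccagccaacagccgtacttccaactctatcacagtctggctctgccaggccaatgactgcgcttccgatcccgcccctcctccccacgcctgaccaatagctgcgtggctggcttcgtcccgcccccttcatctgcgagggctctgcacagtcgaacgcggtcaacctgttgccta
In Ddx58 the match is the reverse complement of the searched letters, and in Ifih1 and Eif2ak2 it is on the strand shown.

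The 3 RNA helicases of the RIG-I family were all higher in BALB/c. Ddx58 (chr4:40203773-40239828, minus strand, 18 exonic blocks), the sensor of RNA with a 5′ triphosphate, had rlog values of 12.24, 12.40, 12.09 and 12.42 in BALB/c and of 11.39, 11.45, 11.59 and 11.53 in C57BL/6N. Every BALB/c cornea was above every C57BL/6N cornea. The difference of the means was 0.80 (SE 0.08, n = 4 and 4) on the rlog scale, and normalised reads were 5492 ± 749 (SD) against 2619 ± 210, a ratio of 2.1.

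Ifih1 (chr2:62595798-62646255, minus strand, 17 exonic blocks), the sensor of long double-stranded RNA, had rlog values of 12.09, 12.27, 11.85 and 12.21 in BALB/c and of 10.88, 10.91, 11.02 and 11.02 in C57BL/6N. The strains did not overlap. The rlog difference was 1.15 (SE 0.09), and normalised reads were 5035 ± 805 against 1726 ± 127, a ratio of 2.92.

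Dhx58 (chr11:100694884-100704271, minus strand, 13 exonic blocks), the member of the family without a signalling domain, had the largest difference of the 3 helicases. Its rlog values were 10.46, 10.48, 10.18 and 10.68 in BALB/c and 8.60, 8.51, 8.49 and 8.39 in C57BL/6N. The lowest BALB/c cornea (10.18) was far above the highest C57BL/6N cornea (8.60). The rlog difference was 1.95 (SE 0.10). The recovered reads were 2073, 2062, 1461 and 2243 in BALB/c and 288, 268, 206 and 220 in C57BL/6N, and the ratio of the normalised means was 6.76. On the rlog scale, which draws the corneas together, the ratio was 3.87.

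Mavs (chr2:131234063-131248025, plus strand, 9 exonic blocks), the common adaptor of RIG-I and MDA5, did not share this pattern. Its rlog values were 11.42, 11.47, 11.59 and 11.46 in BALB/c and 11.52, 11.58, 11.70 and 11.69 in C57BL/6N. The strains overlapped, and the difference of -0.14 (SE 0.06) had the opposite sign to that of the helicases. Normalised reads were 2826 ± 195 in BALB/c and 3210 ± 258 in C57BL/6N, a ratio of 0.88.

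**Figure D1:**
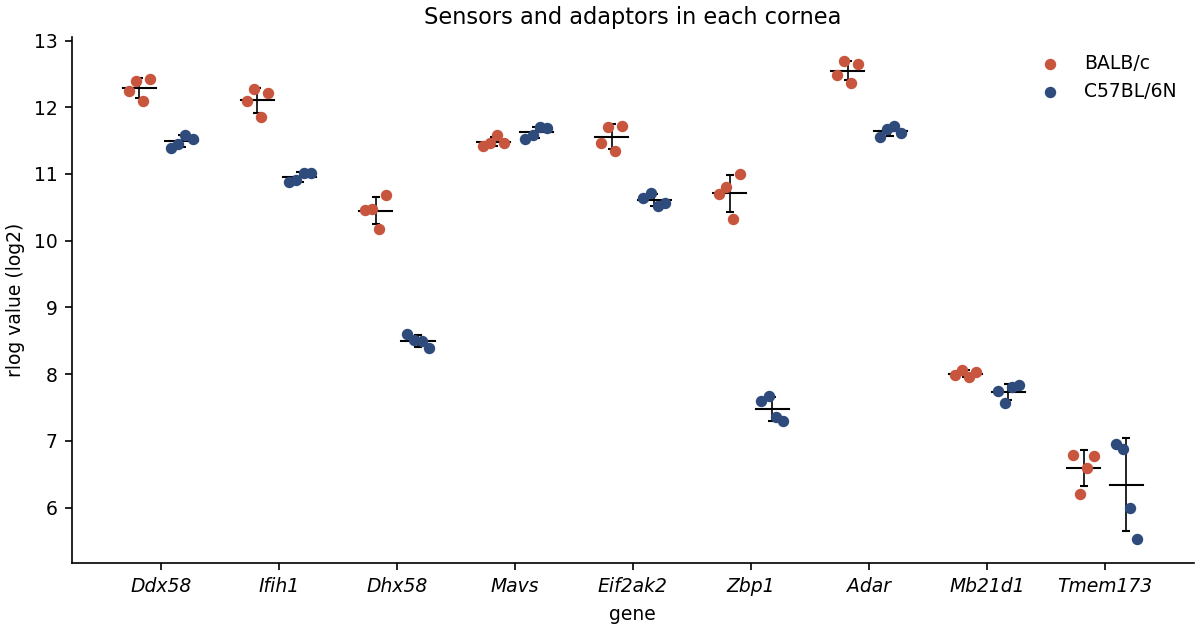
The rlog value (log2) of each of the 9 genes with reads in every cornea. Points are corneas, lines the mean and bars the SD of 4 corneas of a strain. Ddx58, Ifih1, Dhx58, Eif2ak2, Zbp1 and Adar lie higher in all 4 BALB/c corneas, Mb21d1 does so by a narrow margin, and Mavs and Tmem173 overlap.

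Zbp1 (chr2:173206612-173218923, minus strand, 8 exonic blocks), which binds Z-form RNA and DNA, had the largest strain difference of the 9 genes. Its rlog values were 10.70, 10.80, 10.33 and 11.00 in BALB/c and 7.59, 7.67, 7.35 and 7.30 in C57BL/6N, a difference of 3.23 (SE 0.14). The recovered reads were 2745, 2923, 1807 and 3146 in BALB/c against 109, 122, 62 and 71 in C57BL/6N. Thus the lowest BALB/c library held 1807 reads of the gene and the highest C57BL/6N library 122. Normalised means were 2414 ± 558 and 96.6 ± 23.4, a ratio of 25.0, which on the rlog scale is 9.39.

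Eif2ak2 (chr17:78852564-78882573, minus strand, 16 exonic blocks), the kinase that phosphorylates the translation factor eIF2α on double-stranded RNA, had rlog values of 11.46, 11.71, 11.34 and 11.72 in BALB/c. In C57BL/6N they were 10.64, 10.72, 10.52 and 10.57. The strains did not overlap, and the difference was 0.95 (SE 0.09). Normalised reads were 3386 ± 571 against 1390 ± 115, a ratio of 2.44.

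Adar (chr3:89715022-89753446, plus strand, 16 exonic blocks), which converts adenosine to inosine in double-stranded RNA and so removes ligands of MDA5, PKR and ZBP1, was higher in BALB/c as well. Its rlog values were 12.49, 12.69, 12.37 and 12.65 in BALB/c and 11.55, 11.68, 11.72 and 11.62 in C57BL/6N. The groups did not overlap, and the difference was 0.91 (SE 0.08). Normalised reads were 6662 ± 867 against 2873 ± 201, a ratio of 2.32. Gene-level reads do not separate the constitutive from the interferon-inducible isoform of the enzyme.

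In the DNA arm, neither of the genes with reads was called. Mb21d1 (chr9:78430526-78443237, minus strand, 5 exonic blocks), the DNA sensor that makes cyclic GMP-AMP and which the annotation names Cgas, had rlog values of 7.98, 8.06, 7.95 and 8.03 in BALB/c and of 7.74, 7.57, 7.81 and 7.83 in C57BL/6N. The lowest BALB/c cornea (7.95) was just above the highest C57BL/6N cornea (7.83). The difference of 0.27 (SE 0.08) was not called. Recovered reads were 307, 331, 273 and 288 against 197, 165, 172 and 211, a ratio of 1.35 after normalisation.

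Tmem173 (chr18:35733679-35740554, minus strand, 7 exonic blocks), the adaptor of cGAS on the endoplasmic reticulum, overlapped between strains. Its rlog values were 6.79, 6.21, 6.59 and 6.77 in BALB/c and 6.96, 6.88, 6.00 and 5.53 in C57BL/6N, with a difference of 0.25 (SE 0.30). The recovered reads were 159, 69, 112 and 137 in BALB/c and 165, 153, 32 and 11 in C57BL/6N. The 3 lowest values were those of BALB/c replicate 2 and C57BL/6N replicates 3 and 4. These 3 corneas were also low in stromal keratocyte genes. The mean of the leukocyte and macrophage list was lowest there too (5.85, 5.83 and 5.69, against 6.28 to 6.55 in the other corneas). Not every gene of that list was lowest there. Itgam was at 10.57, 10.89 and 10.70, against 10.24 to 10.62 in the other corneas. Cd68 was at 10.34, 10.16 and 10.26, against 9.93 to 10.38. With the stromal list as a covariate the strain difference was 0.03 (SE 0.12), with the leukocyte list -0.04 (SE 0.14), and without the 3 corneas -0.20 (SE 0.10). Leaving out 1 cornea gave -0.02 (without C57BL/6N replicate 4) to 0.46 (without C57BL/6N replicate 1), with 0.43 without C57BL/6N replicate 2, 0.13 without C57BL/6N replicate 3 and 0.38 without BALB/c replicate 2, and limma voom on recovered reads gave 0.74 (SE 0.70). The part of stromal or immune cells in the level of Tmem173 was not tested.

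**Figure D2:**
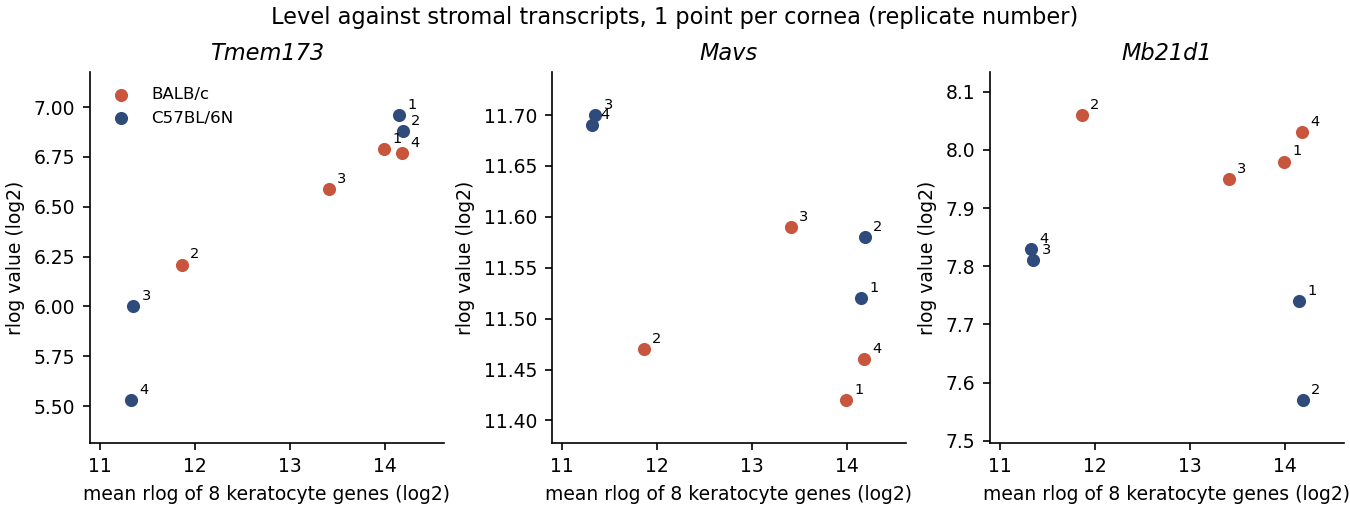
The rlog value (log2) of Tmem173, Mavs and Mb21d1 in each cornea against the mean rlog value (log2) of the 8 stromal keratocyte genes, with the replicate number beside each point. The 3 corneas with the lowest list means (11.32 to 11.86) have the 3 lowest values of Tmem173 (5.53 to 6.21). For Mavs, the stroma-poor C57BL/6N replicates 3 and 4 have the highest values (11.70 and 11.69). The other stroma-poor cornea, BALB/c replicate 2, is at 11.47, below BALB/c replicate 3 (11.59). For Mb21d1, BALB/c replicate 2 (8.06) and C57BL/6N replicates 3 and 4 (7.81 and 7.83) lie highest in their strains.

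Trex1 (chr9:109057933-109059734, minus strand, 3 exonic blocks), the main exonuclease that removes cytosolic DNA, cannot be assessed in these data. All of its 1147 exonic bases lie inside exons of Atrip on the same strand, and it was listed at 0 in all 8 corneas. The same held for 133 of 133 protein-coding genes whose exons lie wholly inside same-strand exons of another gene, against 20.2% of the other protein-coding genes. Reads of such genes are ambiguous when reads are counted on the union of exons. Atrip itself, a partner of the DNA damage kinase ATR, was at 8.75 to 8.81 in BALB/c and 8.72 to 8.93 in C57BL/6N. The other overlaps were with genes on the opposite strand (Dhx58os, Gm8093 at Mb21d1, Chrnb2 at Adar, and Gm26637 and n-R5s29 at Eif2ak2), and none of these had more than 81 recovered reads in a cornea. Of 35 protein-coding genes wholly inside exons of the opposite strand, 22.9% were at 0. By sequence, no near-identical copy (95% identity over 200 bases) was found outside these overlaps.

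Compared per length, with normalised reads per kb of exon, the order of the genes differed between strains. The length is the union of all annotated exons, not that of the transcript expressed, so the order within a strain depends on the annotation. In C57BL/6N, Mavs had the highest mean at 960 ± 77.1 (SD, n = 4) and stood apart from Ddx58 (372 ± 29.8) and Adar (354 ± 24.8), whose ranges overlapped. Eif2ak2 (272 ± 22.5), Ifih1 (211 ± 15.6) and Dhx58 (80.6 ± 7.61) followed without overlap between neighbours. Mb21d1 (48.9 ± 6.37), Tmem173 (34.0 ± 28.7) and Zbp1 (27.4 ± 6.63) were the lowest, and the range of Tmem173 (4.25 to 61.3) covered both others. Zbp1 thus had the lowest mean of the 9 genes in C57BL/6N.

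In BALB/c, Mavs and 6 of the other genes lay close together. Mavs was at 845 ± 58.2 normalised reads per kb, Adar at 821 ± 107, Ddx58 at 779 ± 106, Zbp1 at 684 ± 158, Eif2ak2 at 662 ± 112, Ifih1 at 617 ± 98.5 and Dhx58 at 545 ± 99.7. Each of these overlapped its neighbour in the order. Mb21d1 (65.9 ± 3.58) and Tmem173 (39.7 ± 12.8) were separate and low. Zbp1, last in the order of means in C57BL/6N, stood among the 7 higher genes in BALB/c.

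**Figure D3:**
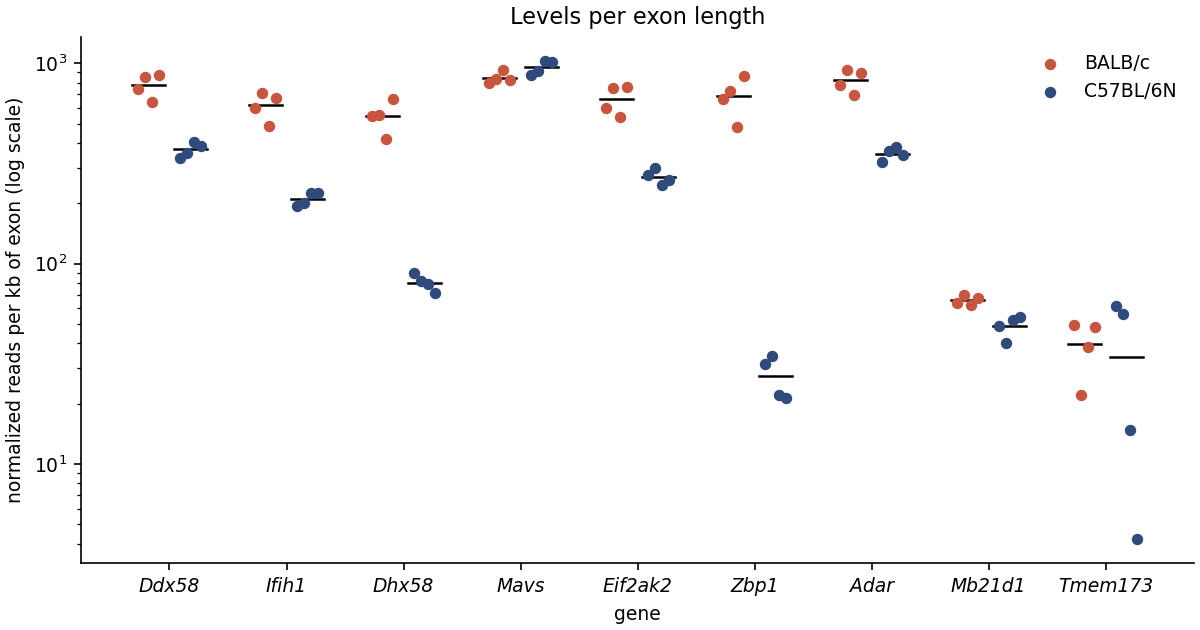
Normalised reads per kb of exon, on a log axis, of the 9 genes in every cornea (points) with the strain mean (lines). In BALB/c, 7 genes lie between 420 and 928, and in C57BL/6N the same 7 spread from 21.3 to 1030.

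In the fit over all genes (limma, Benjamini-Hochberg, adjusted p of 0.01 or less), 5.74% of 25402 tested genes were called, 2.83% as higher and 2.91% as lower in BALB/c. Of the 9 genes tested here, 6 were called, all as higher in BALB/c. Since the genes were chosen with this contrast known, nothing is read from the count. The strains did not overlap in 18.3% of all tested genes and in 7 of the 9. The median difference was 0.91 for the 9 genes and 0.01 for all tested genes. The 6 genes were called in all fits that left out 1 cornea and with limma voom on recovered reads. Those fits reuse the corneas by which the genes were chosen, so they add no evidence about the set. When the p-values of limma were recalibrated to an empirical null, none was called and no gene of the table was (lowest adjusted p 0.13). Of all 25402 tested genes, 1730 had an unadjusted recalibrated p under 0.05. The study tested read counts with DESeq2, not rlog values with limma. It recalibrated those p-values with another tool and did report significant genes at the same threshold. Without the 2 corneas rich in lens and pigment transcripts 5 were called, and Ddx58 was not, with a difference of 0.75.

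The genes that act downstream or alongside were taken from 9 lists by role, which name 114 genes. The lists were also chosen with earlier results of these data known. Their p-values come from the fit over all genes, and their counts are not evidence about the lists. Apart from the interferon ligands, 93 genes were tested, of which 6 were called as higher and 2 as lower in BALB/c (8.60%). The median difference of the 93 genes was 0.02. With every cornea centred on its own median, 3 of the 93 were called (Irf7, Stau2 and Pycard).

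**Figure D4:**
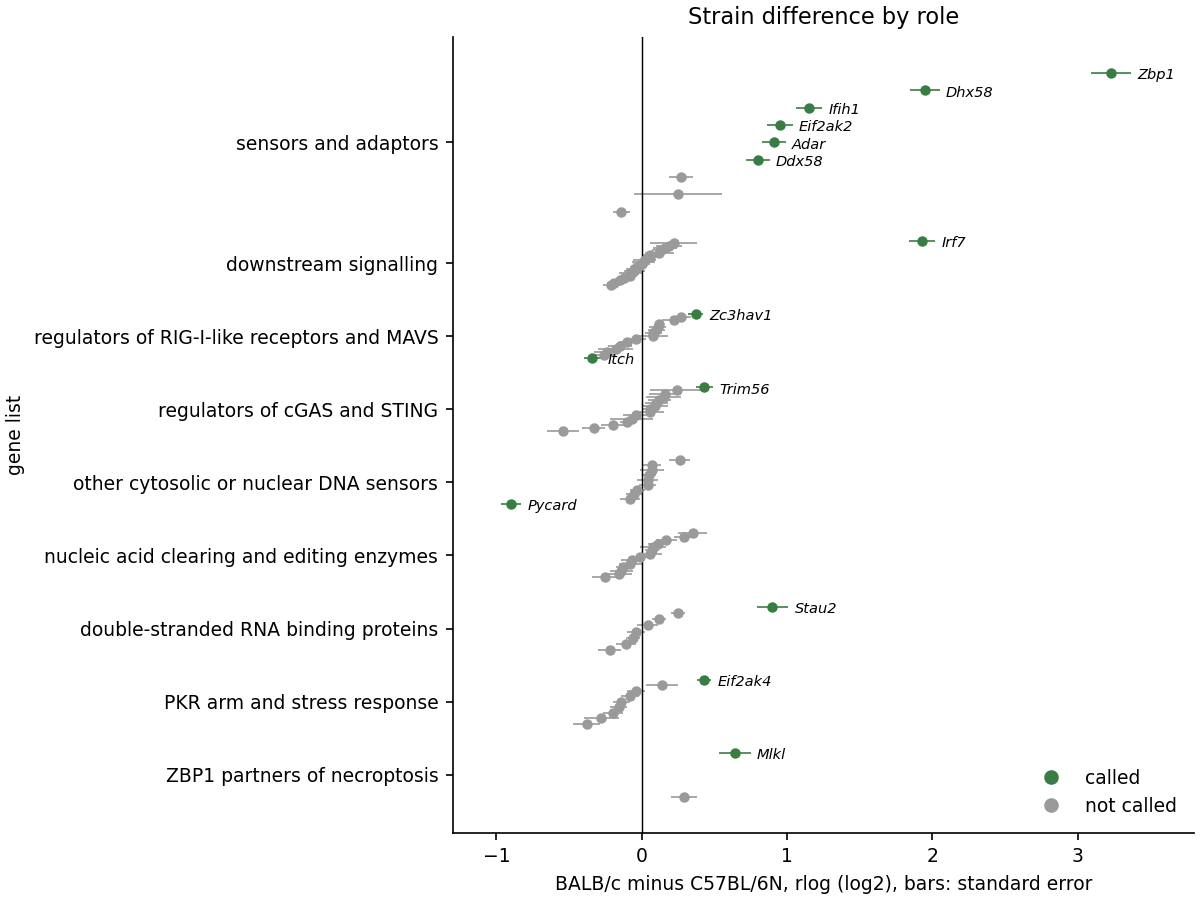
The difference of mean rlog values (log2) between BALB/c and C57BL/6N with its standard error, for the 9 sensors and adaptors with reads and for 93 pathway genes by list. Green points were called at an adjusted p of 0.01 or less. Of the 93 pathway genes 85 were not called, and Irf7 has the largest difference among them, 1.93.

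Of 20 downstream signalling genes, Irf7, the interferon-induced transcription factor that amplifies type I interferon, was the only one called. Its rlog values were 12.80, 12.76, 12.51 and 12.90 in BALB/c and 10.76, 10.67, 10.89 and 10.92 in C57BL/6N. The difference was 1.93 (SE 0.09, adjusted p = 1e-06, limma with Benjamini-Hochberg adjustment), with a ratio of 6.00 in normalised reads. The kinase Tbk1 (0.16, SE 0.08, adjusted p = 0.29) and the constitutive factor Irf3 (-0.21, SE 0.06, adjusted p = 0.074) were not called. The 19 genes of the list that were not called include the adaptors of the TRAF family and the IKK kinases.

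Among 15 regulators of RIG-I-like receptors and MAVS with values, Zc3hav1, the zinc finger antiviral protein that binds RNA and assists RIG-I, rose by 0.37 (SE 0.05, adjusted p = 0.0019). Itch, a ubiquitin ligase that targets MAVS for degradation, was lower by -0.34 (SE 0.06, adjusted p = 0.0033). Trim25, the ligase that ubiquitinates RIG-I, was at 13.31 ± 0.11 in BALB/c and 13.09 ± 0.12 in C57BL/6N and was not called (adjusted p = 0.098). The call of Itch was lost without BALB/c replicate 1, 2 or 3 and without C57BL/6N replicate 3 or 4, with differences of -0.32 to -0.34.

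Among 15 regulators of cGAS and STING, the ubiquitin ligase Trim56 was higher by 0.43 (SE 0.06, adjusted p = 0.0011). Its call was lost with median centring (limma, adjusted p = 0.036). Slc46a2 had the largest difference of the list, in the other direction (-0.54, SE 0.11), and was not called (limma, adjusted p = 0.012). Of 10 other DNA sensors and their partners, Pycard, the adaptor ASC of the inflammasome, was lower in BALB/c. It had rlog values of 9.72, 9.90, 9.96 and 9.83 in BALB/c and of 10.67, 10.70, 10.88 and 10.77 in C57BL/6N, a difference of -0.90 (SE 0.07, adjusted p = 3.8e-05). The inflammasome DNA sensor Aim2 was close to the lower limit in both strains (2.17 ± 0.10 and 2.1 ± 0.09).

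None of the 14 enzymes that clear or edit nucleic acids was called, and their differences ranged from -0.25 to 0.35. They include Samhd1, which depletes deoxynucleotides (0.35, SE 0.10, adjusted p = 0.05), and Adarb1, the second editing enzyme (-0.16, SE 0.09, adjusted p = 0.33). Of 8 double-stranded RNA binding proteins, Stau2, which transports RNA, was higher by 0.90 (SE 0.11, adjusted p = 0.00059).

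Of 9 genes of the PKR arm and the stress response, the amino acid sensing eIF2α kinase Eif2ak4 was higher by 0.43 (SE 0.05, adjusted p = 0.00089). The stress-induced genes downstream of eIF2α were not called, with Ddit3 at 7.21 ± 0.12 in BALB/c and 7.59 ± 0.12 in C57BL/6N (adjusted p = 0.028), and Atf4 at 12.16 ± 0.15 and 12.44 ± 0.23 (adjusted p = 0.18). Of the pair of ZBP1 partners in necroptosis, the executioner Mlkl was higher by 0.64 (SE 0.11, adjusted p = 0.0039) and Ripk3 differed by 0.29 (SE 0.09, adjusted p = 0.08). The call of Mlkl was lost when any 1 cornea other than BALB/c replicate 1 was left out, with differences of 0.57 to 0.65.

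Few reads were assigned to interferon genes. Of 20 genes of types I, II and III, 15 were listed at 0 in all corneas, among them the type I genes Ifnb1 and Ifna4, which the pathway induces, and Ifng, the type II interferon of T and NK cells. The other 5 (Ifna13, Ifna15, Ifne, Ifnk and Ifnz) had at most 4 recovered reads in any cornea and were below the filter. At these depths a count of 0 allows up to 3 reads in a library, that is 0.0728 to 0.101 RPM (reads scaled to the library total), for counting error only. None of the 15 lies wholly inside exons of another gene as Trex1 does. However, Ifng shares part of its exonic bases with a same-strand gene (25.9%), and Ifna6, Ifnab, Ifnl2 and Ifnl3 have near-identical copies, so that reads could have been left uncounted for these 5 genes. The other 10 had neither.

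Plasmacytoid dendritic cells are a main source of type I interferon. The mean of their 5 markers was at 5.42 to 5.73 in BALB/c and 5.35 to 5.66 in C57BL/6N, with Klk1 at 0 throughout. Siglech, the defining marker, was at 2.79 to 3.11 and 2.76 to 2.90, and Tcf4 at 11.28 to 12.36 and 11.02 to 12.21, with overlap. Tcf4, the highest of the 5 markers, was lowest in the 3 stroma-poor corneas (11.28, 11.08 and 11.02). Irf8 was higher in every BALB/c cornea (6.11 to 6.40 against 5.50 to 5.92) and Ccr9 lower in every one (6.78 to 7.07 against 7.30 to 7.80). Of 11 markers of T, B and NK cells, 6 were at 0 in all corneas. The leukocyte and macrophage list of 14 genes was at 5.85 to 6.55 in BALB/c and 5.69 to 6.48 in C57BL/6N, and the strains overlapped. The part of immune cells in the differences of the sensors was not tested.

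The SD of rlog values within a strain, pooled over both strains, was 0.12 to 0.24 for the 6 called genes, 0.08 for Mavs, 0.09 for Mb21d1 and 0.53 for Tmem173. BALB/c replicate 3 was the lowest BALB/c cornea for all 6 called genes, with deviations from the strain mean of -0.18 (Adar) to -0.38 (Zbp1), and also for Mb21d1 (-0.05), but it was the highest for Mavs (0.10). That cornea was neither stroma-poor nor rich in lens transcripts. In C57BL/6N no cornea was lowest throughout. Replicate 1 was the lowest for Ddx58, Ifih1 and Adar, replicate 3 for Eif2ak2, and replicate 4 for Dhx58 and Zbp1.

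**Figure D5:**
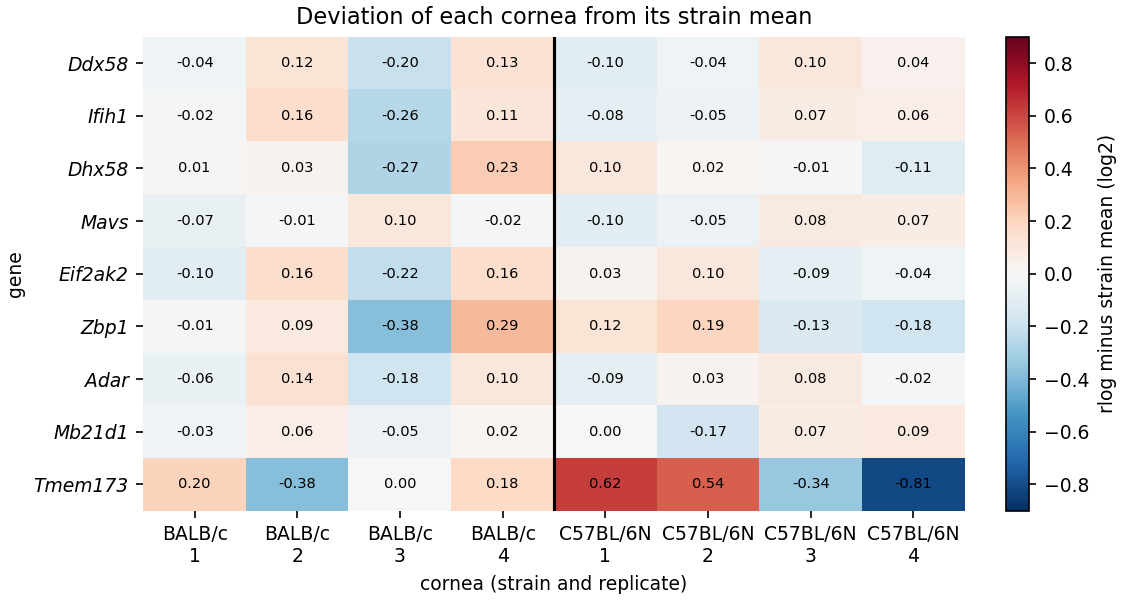
The rlog value of each cornea minus the mean of its strain (log2) for the 9 genes with reads. Columns are corneas, red is above and blue below the strain mean. BALB/c replicate 3 is below the mean for the 6 called genes, and Tmem173 has the widest range, from -0.81 to 0.62.

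After subtraction of the strain means, the 5 tested genes outside the set that followed the mean deviation of the 9 genes most closely over the 8 corneas were Mx2 (Pearson r 0.990), Gm26840 (0.965), Gngt2 (0.965), Gm10010 (0.962) and Gm37309 (0.959). Some of them had few recovered reads per cornea: Gngt2 0 to 11, Gm10010 3 to 70, and Mx2 1 to 32 in C57BL/6N. These r values are a description of genes selected as the highest among all tested. They rest on Tmem173, which carries most of the mean deviation in C57BL/6N. Over the 8 genes without Tmem173, the r of the 5 was 0.693 to 0.833 and the 5 highest were other genes (Mir101b, Phf11a, Gabrp, Hcn3 and Znfx1, 0.975 to 0.990), named after their values were seen. Mx2, an interferon-induced GTPase gene that the annotation lists as a polymorphic pseudogene, was the only one of the 5 that was called between strains, with rlog values of 8.51, 8.76, 7.77 and 9.23 in BALB/c and 6.00, 5.83, 5.56 and 5.22 in C57BL/6N. Its difference was 2.91 (SE 0.29, adjusted p = 0.00016). BALB/c replicate 3 was its lowest BALB/c cornea. That follows from choosing Mx2 by its r with the mean deviation, which was lowest there (-0.16).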

How the data were processed

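Total RNA of 4 BALB/c and 4 C57BL/6N corneas was sequenced as strand-specific paired reads of 100 bases. Ribosomal and transfer RNA were removed by the authors, who aligned the rest to a GRCm38 genome carrying the variants of each strain and counted over the exon union of Ensembl 94 genes. The submitters' processing notes name TopHat2 2.1.1, HTSeq 0.7.1 and DESeq2 1.30. The deposited values are log2 rlog values made by the authors, written with decimal commas. The labels gave the cornea of each column.

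The strain comparison used limma 3.58.1 in R 4.3.3 (lmFit, eBayes with a variance trend) over 25402 genes with a mean rlog of at least 0, with Benjamini-Hochberg adjustment and a call at an adjusted p of 0.01 or less. The procedure was tested on simulated data. Read counts were recovered by inverting the rlog transformation from the table alone. Of values left out of the fit, 94.0% were within 0.1 of a whole number at normalised means of 100 to 1000 reads, 70.3% at 1000 to 5000 and 25.7% above 5000 (20% if spread evenly), so counts above 1000 are approximate. Normalised reads are recovered reads divided by the size factor of the library. PCR copies are not separate molecules, so floors cover counting error only. Exon lengths and overlaps came from GENCODE M21 on GRCm38, copies from blastn 2.17.0, promoters from RefSeq, plots from matplotlib 3.10.9. The annotation names Mb21d1 Cgas.

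The members, the pathway lists and the cell type lists were chosen with earlier results of these data known. Genes named are all members, the called genes of each list with up to 5 by size, 5 genes most like the members over the corneas, overlapping genes and markers, and, chosen after their values were seen, pathway genes that were not called (Tbk1, Irf3, Trim25, Slc46a2, Aim2, Samhd1, Adarb1, Ddit3, Atf4 and Ripk3). Of 114 listed genes, 1 was not matched. Alternatives were 20 planned settings and 2 chosen after seeing the data (leaving out corneas rich in lens and pigment transcripts, or poor in stromal transcripts).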

Additional observations from a re-analysis of the deposited data

Results flagged for a closer look

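Of 52 groups of 4 corneas examined (the sensors and adaptors, the called pathway genes and the marker lists), 1 held a cornea far from the others, where chance alone flags about 1 group in 20. Zc3hav1 was at 12.14 in C57BL/6N replicate 4, against 12.05 in each of the other 3 corneas of the strain, a gap of 0.916 of the whole range.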

How the results depend on the processing

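The limma p-values were recalibrated to an empirical null (standard deviation 1.67). Then 0 genes were called over the whole table, 0 of the sensors and 0 of the pathway genes. An unadjusted recalibrated p under 0.05 was found for 1730 genes of the whole table and 10 of the pathway genes. The study used another tool (fdrtool) for this step and did report significant genes between the strains at the same threshold. Its p-values also came from DESeq2 on read counts, whereas those recalibrated here came from limma on rlog values. The absence of calls is stated for the recalibration used here, and fdrtool was not run on these p-values. Why this setting differed from the other settings and from the study was not tested. The 6 sensors were called in the other settings, except for 5 without the lens- and pigment-rich corneas. All settings reuse the corneas by which the sensors were chosen, so this is a description only. The median difference of the 9 sensors and adaptors with reads, 0.91, was 1.21 with limma voom on recovered counts, which do not carry the shrinkage of rlog, and 0.86 to 0.97 without each cornea in turn. Calls over all genes fell from 1458 to 958 with median centring, to 457 without the lens- and pigment-rich corneas and to 852 without the stroma-poor corneas. They rose to 2434 with the stromal covariate and to 2842 at an adjusted p of 0.05 or less, and were 951 to 1162 without each cornea in turn, lowest without C57BL/6N replicate 4 (951) and BALB/c replicate 3 (971). Pathway calls fell from 8 to 3 with median centring and without either set of corneas, rose to 18 at 0.05, and were 6 to 7 without each cornea. With the replicate number as a block, calls were 554 over all genes, 6 among the sensors and 3 among the pathway genes. After subtraction of the strain means, correlations of same-numbered corneas were 0.31, -0.53, -0.20 and -0.45. The labels give only the number, and so few correlations cannot show whether these corneas were handled together. No difference of a called gene named here changed sign. Depth limits the interferon genes, which had 0 to 4 reads.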
